A study of Mus musculus with 2 samples.

Results

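Regulatory T cells of the healing wound were taken as the T cells that carried a Foxp3 UMI (a unique molecular identifier, 1 counted RNA molecule) in single-cell RNA profiles of wound-centre skin. A cell entered with 500 or more UMIs from 300 or more genes and no more than 15% of them mitochondrial, when it held 2 or more UMIs of Cd3d, Cd3e and Cd3g together, 1 or more of Foxp3, 0 UMIs of Cd8a and Cd8b1, and at most 2 UMIs of the cycling genes Mki67 and Top2a. It held 492 of the 26551 deposited cells, 301 in WT_LW and 191 in TLR9agonist_LW. The members were thus selected on measured levels of these genes, and no test is given for them. Both groups were male wild-type mice of the C57BL/6J background with a full-thickness dorsal wound of 1.8 cm diameter. On days 0, 3 and 6 they were given PBS (WT_LW) or the TLR9 agonist ODN2395, a CpG oligonucleotide (TLR9agonist_LW). The study's methods name PBS for WT_LW, while a figure legend on healing speed names a control oligonucleotide. Skin was collected 2 days after the scab had come off, and cells of several mice were pooled into 1 library per group. Mice therefore cannot be told apart within a library, the effect of ODN2395 cannot be told apart from any other difference between the 2 libraries, and no p-value is given between them. The study used the comparison to ask how immune cells of a large wound differ when TLR9 is activated.

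Regulatory T cells are CD4 T cells whose program is held by the transcription factor Foxp3, and they restrain other T cells through surface receptors such as Ctla4, through the uptake of IL-2 by the high-affinity receptor chain Il2ra, and through secreted factors such as IL-10. In skin and other barrier tissues a subset that carries the IL-33 receptor Il1rl1 and secretes the epidermal growth factor family ligand amphiregulin (Areg) is known to take part in tissue repair. Skin regulatory T cells are also known to support hair follicle stem cells.

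The deposited cells held 99374045 UMIs in WT_LW and 132339022 in TLR9agonist_LW, and 11443 and 13206 cells passed the filter. The Foxp3+ T cells held 1777839 UMIs (median 4199 per cell) and 1570358 UMIs (median 5091). Of the cell barcodes, 47 occurred in both libraries, with 0 of them a Foxp3+ T cell in both. A doublet score called 15.6% and 23.6% of the Foxp3+ T cells likely doublets, against 168 of 1204 and 131 of 788 Cd4+ T cells without Foxp3. Levels are given as CPM, the UMIs of a gene summed over the cells of a group and scaled to the group's total, and every interval is a 95% interval that covers counting error only. UMIs of 1 cell are not independent, so the spread between cells and mice is larger than these intervals.

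Foxp3 was sparse in the gated cells, with a median of 2 UMIs and a maximum of 11 in WT_LW and 9 in TLR9agonist_LW. A single Foxp3 UMI admitted 117 of the 301 cells and 61 of the 191 cells. Just inside this edge, the cells with 1 Foxp3 UMI carried 687 CPM of Ikzf2, which encodes the transcription factor Helios, in WT_LW and 403 in TLR9agonist_LW. Cells with 3 or more carried 1079 and 1192 CPM. Just outside it, the Cd4+ T cells without a Foxp3 UMI carried 61.3 and 53.5 CPM of Ikzf2. Il2ra and Ctla4 followed the same order, at 410 and 663 CPM in the WT_LW cells with 1 Foxp3 UMI, 212 and 387 CPM in those of TLR9agonist_LW, and at most 141 and 178 CPM in cells without one. At the other edges, 33 and 22 cells with Foxp3 had 1 Cd3 UMI, 24 and 19 had a Cd8 UMI, and 53 and 23 had more than 2 cycling UMIs. A Foxp3 UMI was seen in 0.942% of WT_LW fibroblasts (7 of 743, median 11432 UMIs) and in 0.633% of TLR9agonist_LW fibroblasts (15 of 2370, median 10652 UMIs), cells that should lack the gene, and in 10 of 512 and 1 of 384 endothelial cells (medians 6334 and 8899 UMIs).

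Regulatory T cells made up a smaller share of T cells in the ODN2395 library. They were 7.49% of the T cells in WT_LW (301 of 4017, exact Clopper-Pearson interval 6.70 to 8.35) and 4.35% in TLR9agonist_LW (191 of 4392, 3.76 to 4.99), a log2 ratio of -0.78 (-1.04 to -0.53). With every cell thinned to 1500 UMIs, which leaves out shallower cells, the shares were 4.95% and 2.48%. Cd4+ T cells without Foxp3 went the same way, from 29.97% to 17.9% of T cells, and so did CD8 T cells, from 14.4% to 6.76%, while T cells as a whole were 35.1% and 33.3% of the filtered cells. Within Foxp3+ plus Foxp3- Cd4+ cells the share of Foxp3+ cells was therefore close between the libraries, at 20.0% (18.0 to 22.1) and 19.5% (17.1 to 22.1), with a log2 ratio of -0.04 (-0.27 to 0.20). This last comparison depended on which cells were counted. Without cells above 1% of other-lineage UMIs, described in the next paragraph, the shares were 19.8% (17.7 to 22.0) and 15.7% (13.1 to 18.6). Of the Foxp3+ T cells 51.2% carried a Cd4 UMI in WT_LW and 36.6% in TLR9agonist_LW, and when such a UMI was required the shares were 11.3% and 8.16%.

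**Figure D1:**
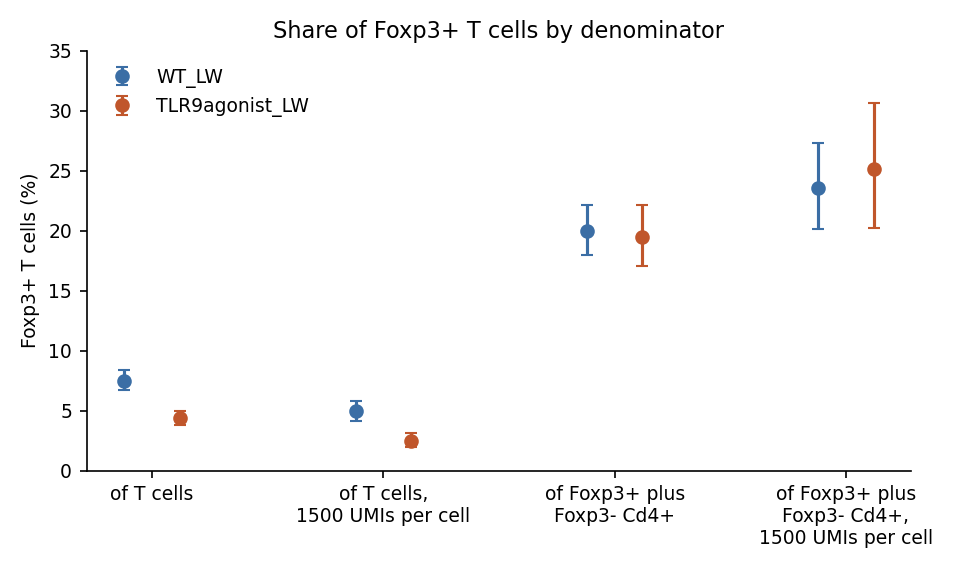
Share of Foxp3+ T cells in each library, in percent, with exact 95% Clopper-Pearson intervals, of all T cells and of Foxp3+ plus Foxp3- Cd4+ T cells, unthinned and with every cell thinned to 1500 UMIs. The TLR9agonist_LW share lies below the WT_LW share among T cells (4.35% against 7.49%), and the intervals overlap among Foxp3+ plus Foxp3- Cd4+ cells (19.5% against 20.0%).

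The 2 libraries differed in the RNA of other cell types that the Foxp3+ T cells carried. Over 33 marker genes of macrophages, dendritic cells, neutrophils, keratinocytes and fibroblasts, the median Foxp3+ T cell had 0.436% of its UMIs in WT_LW and 0.866% in TLR9agonist_LW, and 10.6% and 42.9% of the cells exceeded 1%. Foxp3- Cd4+ cells had like medians, 0.381% and 0.754%. The summed level of the 6 fibroblast markers was 5443 CPM in the first library and 18074 in the second, and that of the 8 keratinocyte markers 1761 and 5703 CPM. The 5 neutrophil markers summed to 1069 and 4469 CPM, with Cxcr2 at 0. In the opposite direction, the 6 dendritic cell markers summed to 4296 and 503 CPM and the 8 macrophage markers to 2466 and 764 CPM. The B cell markers Cd79a and Ms4a1 were at 0. The part of these RNAs in the differences between the libraries was not tested. Of 36 list genes past 2-fold between the libraries, 26 stayed past it in the same direction without the cells above 1% and 28 without predicted doublets. Of 63 list genes called against Foxp3- Cd4+ cells, 61 and 50 kept their call in the same direction, and 48 and 3 list genes were newly called.

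What set regulatory T cells apart from Cd4+ T cells without Foxp3 in the same wounds was asked on 4 UMI sums. These were Foxp3+ and Foxp3- Cd4+ T cells of each library, compared with edgeR's quasi-likelihood test and the library as a block. A Cd4 UMI was required of the Foxp3- cells only, and 51.2% (WT_LW) and 36.6% (TLR9agonist_LW) of the Foxp3+ cells had one. Of 11437 genes tested, 273 were higher in Foxp3+ cells (2.39%) and 180 were lower (1.57%) at a Benjamini-Hochberg adjusted p under 0.05, and 450 of these 453 moved the same way in both libraries. The contrast leaves 1 residual degree of freedom per gene, the difference between these 2 libraries. The test moderates it with a spread shared over genes, worth 9.84 degrees of freedom. Its p-values thus rest mostly on that shared spread, and not on replicate mice. The calls rest on the library block, since without it 1 gene was higher and 0 were lower. The Foxp3- group may hold regulatory T cells whose Foxp3 went uncounted.

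Of the 17 regulatory T cell identity genes tested (Foxp3 itself left out), 14 were higher in Foxp3+ cells and 0 lower, with a median log2 fold change of 1.65 beside -0.01 over all genes. Ikzf2 stood at 853 CPM in WT_LW and 849 in TLR9agonist_LW, against 61.3 and 53.5 CPM in Foxp3- Cd4+ cells (log2 fold change 3.85, SE 0.18, adjusted p = 1.38e-06). The groups were far apart in both libraries. Ctla4, the inhibitory receptor that strips B7 ligands from antigen-presenting cells, was at 833 and 594 CPM against 152 and 178 (2.06, SE 0.20, adjusted p = 0.000192). Il2ra was at 487 and 397 CPM against 118 and 141 (1.73, SE 0.18, adjusted p = 0.000329). All these values of Foxp3+ cells lay above those of Foxp3- cells in either library. The costimulatory receptors of the TNF receptor family Tnfrsf4 (OX40), Tnfrsf18 (GITR) and Tnfrsf9 (4-1BB) were higher by log2 1.65, 1.41 and 2.43. Lrrc32, which holds latent TGF-beta at the surface, was higher by 2.69, Ikzf4 (Eos), a partner of Foxp3, by 2.87, and Izumo1r, the folate receptor 4 of regulatory T cells, by 4.19. The 3 genes that did not pass were Nrp1 (log2 0.02), Il2rb (0.11) and Capg (0.40). Gpr83 was nearly absent, with 1 UMI in WT_LW and 0 in TLR9agonist_LW. With all Foxp3- CD8- T cells as the comparator, Cd4 UMI or not, 9 of the 17 passed, and Il2ra (adjusted p = 0.425) and Tnfrsf9 (0.0921) were among those that did not.

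**Figure D2:**
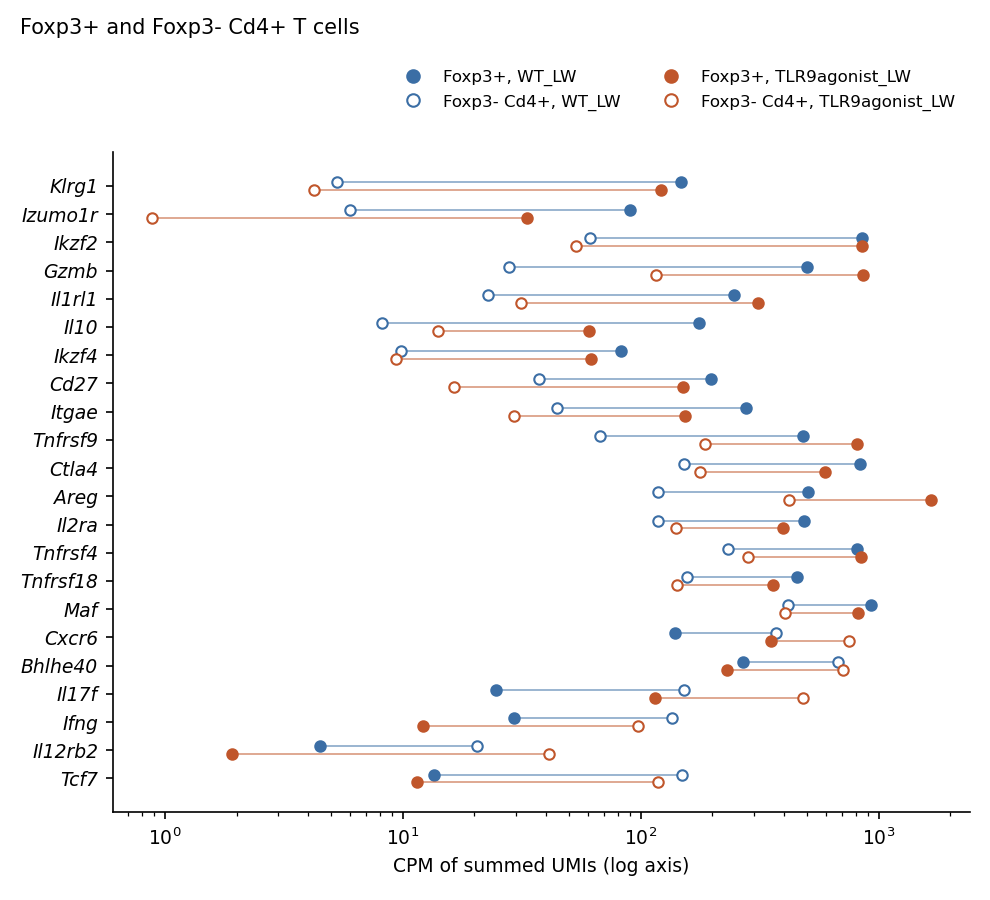
Level of 22 list genes in Foxp3+ T cells (filled circles) and Foxp3- Cd4+ T cells (open circles) of WT_LW (blue) and TLR9agonist_LW (orange), in CPM of summed UMIs on a log axis, ordered by log2 fold change. Ikzf2 is at 853 and 849 CPM in Foxp3+ cells against 61.3 and 53.5 CPM, and Tcf7, at the bottom, is at 13.5 and 11.5 against 148 and 118 CPM.

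Genes of suppression differed member by member. Of 16 tested, 6 were higher in Foxp3+ cells and 1 lower (median log2 0.57). Gzmb, the protease granzyme B of cytotoxic granules, was at 499 and 857 CPM against 28.1 and 116 (3.46, SE 0.27, adjusted p = 4.68e-05). Il10 was at 175 and 60.5 CPM against 8.17 and 14.1 (3.27, SE 0.42, adjusted p = 0.00112). Itgb8 and Itgav, which encode the integrin that frees active TGF-beta, were higher by 2.78 and 1.40, and Ebi3, a subunit of IL-35 and IL-27, by 1.73. Lag3, a receptor for MHC class II, was higher by 2.54, though it rested on 24 and 13 UMIs. Tgfb1 was at 182 and 145 CPM against 158 and 173 (-0.06, adjusted p = 0.939), and Furin, a protease that matures pro-TGF-beta, was lower by 1.21 on the log2 scale (log2 -1.21). The higher genes numbered 13 of 16 when cells above 1% of other-lineage UMIs were left out and 3 when a Cd4 UMI was required.

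The list of tissue repair genes had 9 of 20 members higher and 2 lower, with a median of 0.76. Klrg1, an inhibitory receptor of differentiated tissue lymphocytes, was at 147 and 122 CPM against 5.31 and 4.22 (4.77, SE 0.20, adjusted p = 1.38e-06). Il1rl1, the IL-33 receptor, was at 247 and 310 CPM against 22.7 and 31.3 (3.33, SE 0.17, adjusted p = 2.6e-06), though fibroblasts carried it too, at 239 and 189 CPM. Areg was at 503 and 1654 CPM against 118 and 417 (2.00, SE 0.16, adjusted p = 6.06e-05). These 3 genes were thus higher in the regulatory T cells of either library. Penk, the enkephalin precursor, was higher by 2.01 (without predicted doublets adjusted p = 0.111), the lipid enzyme Dgat2 by 2.97, and the transcription factors Maf, Nfil3 and Batf by 1.05, 0.94 and 0.81. Il33 was higher by 0.95, but 5 cells held all 24 of its UMIs in WT_LW and 76.2% of 206 in TLR9agonist_LW, and its fold change was -0.35 without predicted doublets and -0.79 without other-lineage cells, neither called. Gata3, the type 2 transcription factor, was at 122 and 126 CPM against 107 and 96.6 (0.25, adjusted p = 0.583). Bhlhe40 and the IL-18 receptor chain Il18r1 were lower, at -1.51 and -1.28. Against all Foxp3- CD8- T cells, which include T cells without Cd4, 4 of the 20 were higher, and Areg was at a log2 fold change of 0.12 (adjusted p = 0.948).

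Among the 10 genes with the largest fold change upward, Klrg1 was joined by Izumo1r. Neb, which encodes the muscle protein nebulin, was at 145 and 41.4 CPM against 9.53 and 0.704 (4.30, SE 0.32, adjusted p = 3.61e-05). Ankrd55 was at 25.3 and 21.0 CPM against 1.09 and 1.41 (4.16), and Frmd5 at 25.9 and 17.2 CPM against 0.817 and 0.352 (5.08). Tmc3, Kcna4, Gm17767 and Ppp1r3fos rested on 17, 26, 36 and 38 UMIs in Foxp3+ cells. Of the lymphoid list 2 of 12 were higher and 3 lower (median -0.23). Klf2, a factor of T cell quiescence and recirculation, was higher by 0.71 (without predicted doublets adjusted p = 0.0614). Tcf7, the factor TCF-1 of naive and stem-like T cells, was at 13.5 and 11.5 CPM against 148 and 118 (-3.46, SE 0.20, adjusted p = 7.83e-06), and Bcl2 and Bach2 were also lower, at -2.05 and -1.81, the latter with an adjusted p of 0.118 without predicted doublets.

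Genes lowest in Foxp3+ cells included the death ligand Fasl, at 3.94 and 0.637 CPM against 38.1 and 28.5 (-3.87, SE 0.41, adjusted p = 0.000381). The ganglioside synthase St8sia1 and the killer cell receptor gene Klri2 rested on 6 and 3 UMIs in Foxp3+ cells against 268 and 144, with pooled CPM ratios of 0.0871 (0.0317 to 0.192) and 0.0811 (0.0165 to 0.242), and Apol7e and 5830411N06Rik on 1 UMI each, with ratios of 0.059 (0.00147 to 0.34) and 0.0442 (0.00111 to 0.253). The last 4 of the 10, Nrgn, St6galnac1, Slc17a6 and Lcn4, had 0 UMIs in Foxp3+ cells of either library. Against a limit of 3 counts over the group, pooled over the libraries, they were at least 13.2-fold, 10.4-fold, 5.48-fold and 4.71-fold lower.

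Of 12 genes of other helper programmes tested, 4 were lower in regulatory T cells and 0 higher. Ifng, the type 1 cytokine, was at 29.2 and 12.1 CPM against 135 and 96.9 (-2.56, SE 0.22, adjusted p = 9.78e-05), and Il12rb2, which transmits IL-12, was lower at -3.19. Il17f was at 24.8 and 115 CPM against 152 and 480 (-2.35, SE 0.19, adjusted p = 5.29e-05). Il13 rested on 1 UMI in Foxp3+ cells of each library (-3.68) and lost its call without predicted doublets (adjusted p = 0.0637). Il17a, at 34.3 and 531 CPM against 215 and 709, had a log2 fold change of -1.44 and an adjusted p of 0.0697. It was called lower without predicted doublets (-2.61, adjusted p = 0.00571) and without other-lineage cells (-1.08). In the main setting the gap was wide in WT_LW (34.3 against 215 CPM) and narrow in TLR9agonist_LW (531 against 709 CPM). A few cells held most of the Il17a UMIs of Foxp3+ cells, and its p-values do not measure the spread between cells or mice.

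The receptors that place T cells in tissue were divided. Itgae, the CD103 integrin chain that binds epithelial E-cadherin, was at 276 and 153 CPM against 44.4 and 29.4 (2.48, SE 0.17, adjusted p = 2.18e-05), and the chemokine receptor Ccr2 was higher by 1.48. Cxcr6, a receptor of tissue-resident T cells, was lower, at 139 and 353 CPM against 370 and 747 (-1.28), and so was the integrin chain Itgal (-1.14). In all, 3 of the 16 homing genes tested were higher and 2 lower. Of the checkpoint genes, Cd27 was at 196 and 151 CPM against 37.3 and 16.4 (2.72, SE 0.21, adjusted p = 4.24e-05), while Cd96 was lower (-1.90).

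Genes induced by interferon-gamma were higher in regulatory T cells than in their Foxp3- neighbours, with 9 of 16 higher and 0 lower and a median of 0.86. Gbp3, a guanylate-binding GTPase of cell-intrinsic defence, was at 107 and 66.2 CPM against 16.1 and 17.9 (2.29, SE 0.23, adjusted p = 0.000281). Gbp5, Gbp7 and Gbp2 of the same family were higher by 2.18, 1.36 and 1.25, and the immunity-related GTPases Igtp and Iigp1 by 1.10 and 0.83. The chemokine genes Cxcl9 and Cxcl10 were higher by 2.02 and 0.95, but 5 cells held 94.96% of the Cxcl9 UMIs in WT_LW and 88.1% in TLR9agonist_LW, and Cxcl10 was higher still in fibroblasts, at 349 and 832 CPM. Cxcl9 was at 0.20 without predicted doublets and -0.40 without other-lineage cells, neither called. Without predicted doublets 5 of the 16 passed, Gbp3, Gbp5, Gbp7 and Igtp among them, and without cells above 1% of other-lineage UMIs 10 passed. The type I interferon list had 2 of 20 higher and 0 lower (median 0.42).

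For the interferon-gamma genes that were higher, the 250 bases before their starts were read from RefSeq promoters of GRCm38.p6, matched by symbol. Of the 9 genes, 7 had an entry, and 6 of these held the interferon-stimulated response element core (GAAA, any 2 bases, then GAAA) on either strand (Gbp2, Gbp3, Gbp5, Gbp7, Igtp and Cxcl10), where 3.46% of 27025 genes with an entry did. Among the interferon-gamma genes that did not pass, 2 of 6 held it, and among the identity genes that were higher 1 of 8 did. The list was chosen as genes induced by interferon-gamma, so a share above that of all genes was largely set beforehand. Gbp2, Gbp3, Gbp5 and Gbp7 are also relatives that lie near each other on chromosome 3. The gamma-activated site TTCNNNGAA, which stands in 8.13% of genes, was in 3 of the 7, and no match to the first motif was found before Cxcl9. Sequences of 4 of these promoters follow, chosen for carrying the motif in the GTPase genes, 5′ to 3′ on the strand of the gene, with the motif in capitals (2 overlapping matches in Gbp3).
Gbp2, chr3:142620413-142620662, plus strand: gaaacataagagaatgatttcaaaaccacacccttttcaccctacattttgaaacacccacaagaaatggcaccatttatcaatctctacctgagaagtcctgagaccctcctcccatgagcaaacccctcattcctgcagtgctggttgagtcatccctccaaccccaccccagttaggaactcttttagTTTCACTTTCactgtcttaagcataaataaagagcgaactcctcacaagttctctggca
Gbp3, chr3:142559794-142560043, plus strand: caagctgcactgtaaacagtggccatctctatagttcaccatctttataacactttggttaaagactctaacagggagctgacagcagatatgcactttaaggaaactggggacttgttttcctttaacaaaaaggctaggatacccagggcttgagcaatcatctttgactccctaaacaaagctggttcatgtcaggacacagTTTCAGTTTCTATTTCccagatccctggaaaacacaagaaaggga
Gbp7, chr3:142530086-142530335, plus strand: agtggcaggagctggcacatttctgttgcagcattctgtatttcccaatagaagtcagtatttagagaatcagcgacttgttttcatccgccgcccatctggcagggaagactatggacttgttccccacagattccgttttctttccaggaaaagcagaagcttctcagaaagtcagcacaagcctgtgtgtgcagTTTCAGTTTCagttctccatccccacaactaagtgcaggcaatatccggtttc
Igtp, chr11:58199306-58199555, plus strand: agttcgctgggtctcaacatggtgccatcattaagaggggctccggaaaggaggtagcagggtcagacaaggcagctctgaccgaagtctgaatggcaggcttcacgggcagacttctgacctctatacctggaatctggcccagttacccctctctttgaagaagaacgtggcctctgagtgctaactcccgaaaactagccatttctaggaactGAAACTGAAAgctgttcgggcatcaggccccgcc
The motif lay 59 bases before the start in Gbp2, 53 in Gbp7 and 34 in Igtp, and 45 and 39 in Gbp3, whose other RefSeq start had none. It lay farther off in Gbp5, also a GTPase gene, at 165 bases, and in Cxcl10 at 213, whose sequences are not shown. A match is a description of these letters only, and binding was not measured.

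**Figure D3:**
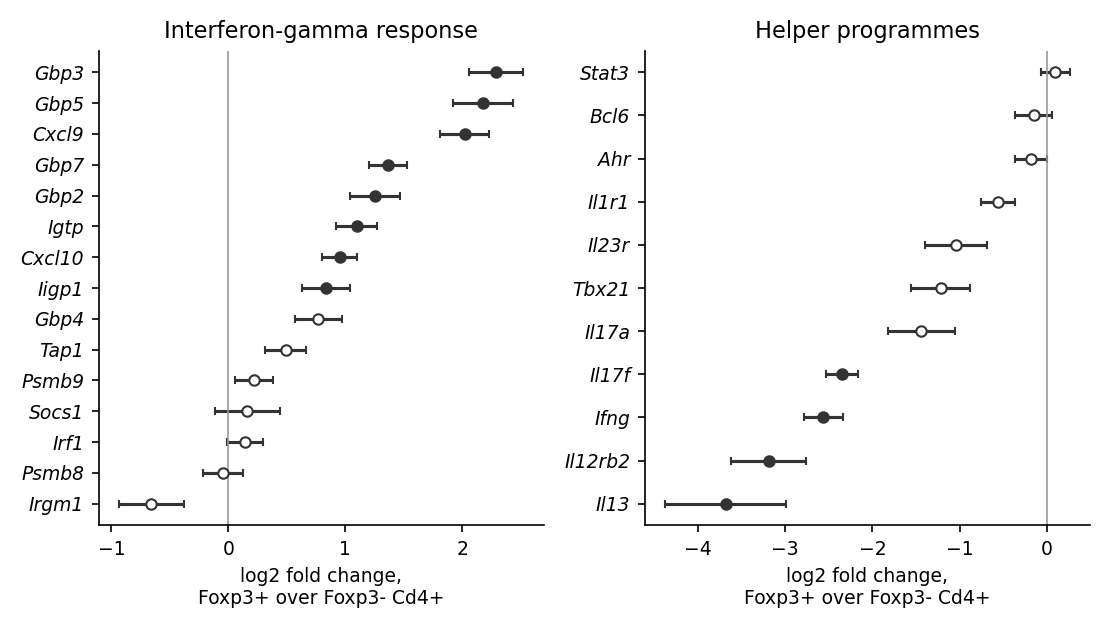
Log2 fold change of Foxp3+ over Foxp3- Cd4+ T cells for genes of the interferon-gamma response list (left) and the helper programme list (right). Bars are standard errors derived from edgeR's F statistic. Filled circles mark an adjusted p under 0.05: 8 of the 15 interferon-gamma genes plotted, all above 0, and 4 of the 11 helper genes plotted, all below 0.

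Between the libraries, regulatory T cells were compared by a fixed size, a log2 CPM ratio (TLR9agonist_LW over WT_LW) of at least 1 in either direction relative to the median gene, which itself stood at -0.23. Of 4463 genes with at least 100 UMIs, 10.8% passed, 6.61% higher and 4.17% lower in TLR9agonist_LW. This is a description of 1 library per group. The identity genes were close between the libraries, with 0 of 17 higher, 1 lower and a median of -0.19. Ikzf2 was at 853 and 849 CPM (0.22, interval 0.12 to 0.33), Il2ra at 487 and 397 CPM (-0.07, -0.22 to 0.08) and Tnfrsf4 at 807 and 844 CPM (0.29). Ctla4 was at 833 CPM in WT_LW and 594 in TLR9agonist_LW (-0.26, -0.38 to -0.14). Tnfrsf9 was at 480 and 813 CPM (0.99, 0.86 to 1.12), just short of the size, and Izumo1r at 90.0 and 33.1 CPM (-1.21, -1.69 to -0.75).

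Areg was the most abundant repair gene that differed. Its level was 503 CPM in WT_LW against 1654 in TLR9agonist_LW, a log2 ratio of 1.95 (1.83 to 2.06), and was seen in 124 of 301 and 135 of 191 cells. With cells thinned to 1500 UMIs, 27.4% and 47.6% of Foxp3+ T cells carried an Areg UMI, against 1.54% and 5.56% of fibroblasts. Over the 8 alternative settings the ratio ran from 1.72 (not set against the median gene) to 2.28 (a Cd4 UMI required). Foxp3- Cd4+ T cells had a ratio of like size, 2.04, from 118 to 417 CPM. Of the 16 repair genes with enough UMIs, 4 passed upward and 0 downward, with a median of 0.33. Dgat2, the last enzyme of triglyceride synthesis, was at 18.0 and 74.5 CPM (2.28, 1.70 to 2.89), in 23 and 52 cells, while Foxp3- Cd4+ cells had 5.04 and 4.57 CPM. Penk was at 97.3 and 194 CPM (1.22), with 59.5% of its TLR9agonist_LW UMIs in 5 cells. Il33 was at 13.5 and 131 CPM (3.51), and the same libraries differed as much in Foxp3- Cd4+ cells (3.49). The part of other cells in it was not tested. Il1rl1 was at 247 and 310 CPM (0.55) and Klrg1 at 147 and 122 CPM (-0.05), neither past the size.

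Suppression genes went both ways. Il10 was at 175 CPM in WT_LW and 60.5 in TLR9agonist_LW (-1.31, -1.66 to -0.97), in 79 and 23 cells, and at 16.2% and 5.76% of cells after thinning, against 0.308% and 0.2504% of fibroblasts. In 5 cells lay 40.7% and 68.4% of its UMIs. Its ratio was -2.19 in cells with at least 2 Foxp3 UMIs and -0.98 without other-lineage cells. Gzmb was at 499 and 857 CPM (1.01, 0.89 to 1.13), which falls to 0.78 when ratios are not set against the median gene. Pdcd1, the receptor PD-1, was at 50.6 and 87.2 CPM (1.01), and fell short of the size without predicted doublets (0.71) and without other-lineage cells (0.88). Fgl2, a secreted suppressor, and Entpd1, the ectonucleotidase CD39, were lower, at -1.22 and -1.06, and Entpd1 was at -0.46 without predicted doublets. Itgb8 (-0.07), Tgfb1 (-0.09) and Icos (0.20) were close to the median gene. In all, 2 of 13 suppression genes passed upward and 3 downward. In Foxp3- Cd4+ cells the ratio of Gzmb was larger, at 2.26, and that of Pdcd1 was 0.78. There Il10, Fgl2 and Entpd1, the genes past the size downward, were at 1.01, 0.08 and 0.02.

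**Figure D4:**
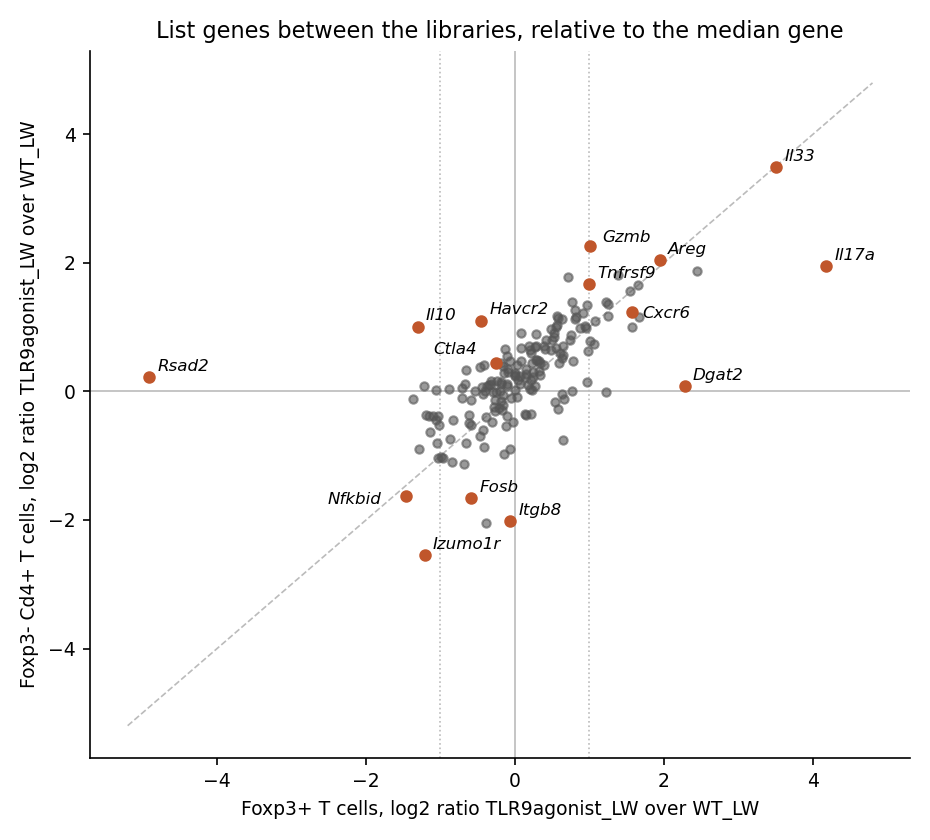
Log2 CPM ratio of TLR9agonist_LW over WT_LW, relative to the median gene, for 182 list genes with at least 100 UMIs in Foxp3+ T cells (horizontal) and the same genes in Foxp3- Cd4+ T cells (vertical), with named genes in orange, dotted lines at a 2-fold difference and a dashed line of equal ratios. Areg lies near the dashed line (1.95 and 2.04), Il10 has opposite signs (-1.31 and 1.01), and Dgat2 (2.28 and 0.08) and Rsad2 (-4.91 and 0.22) lie far from it along the horizontal axis.

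Of the homing genes, Cxcr6 was at 139 and 353 CPM (1.57, 1.35 to 1.79), also higher in Foxp3- Cd4+ cells (1.24). Ccr4, a skin homing chemokine receptor, was at 69.8 and 26.1 CPM (-1.19), Itgal at 118 and 41.4 CPM (-1.28) and S1pr1, the exit receptor that follows sphingosine 1-phosphate, at 95.1 and 38.8 CPM (-1.06, and -0.56 without predicted doublets). Of 15 homing genes 1 was higher and 3 lower past the size. Of the 13 T cell receptor response genes 4 were lower and 0 higher, with a median of -0.42. Nr4a3, an early nuclear receptor of T cell activation, was at 272 and 115 CPM (-1.02) and the phosphatase Dusp2 at 196 and 80.9 CPM (-1.05). Nfatc1 was at 70.3 and 29.3 CPM (-1.03) and Irf8 at 59.6 and 19.7 CPM (-1.37, and 0.00 without other-lineage cells). Of 17 TNF receptor and NF-kB genes, Ltb was higher (554 and 991 CPM, 1.07) and the inhibitor Nfkbid lower (137 and 42.7 CPM, -1.46), and Nfkbid was as low in Foxp3- Cd4+ cells (-1.62).

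Interferon genes were not higher as a group in the Foxp3+ T cells of the ODN2395 library. Of 11 type I interferon genes 0 passed upward and 3 downward (median 0.01), and of 15 interferon-gamma genes 0 passed upward and 1 downward (Gbp4, 111 and 46.5 CPM, median -0.10). Gbp4 was at -1.03, and at -0.93 without predicted doublets and -0.77 without other-lineage cells. Rsad2 (viperin) was at 67.5 and 1.91 CPM, but 5 cells held 87.5% of its 120 UMIs in WT_LW. Ifi203 was at 197 and 78.3 CPM (-1.10) and Zbp1, a sensor of Z-form nucleic acid, at 87.8 and 33.8 CPM (-1.15). Outside the Foxp3+ T cells, the same 11 type I genes had medians of 0.48 in Foxp3- Cd4+ cells, 0.21 in CD8 T cells and 1.44 in fibroblasts. For the 15 interferon-gamma genes these medians were 0.30, -0.07 and 0.74. Tlr9 itself had 0 UMIs in the Foxp3+ T cells of both libraries.

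Of 19 glycolysis and hypoxia genes 5 passed upward and 0 downward, with a median of 0.63, and the same genes had a median of 1.01 in Foxp3- Cd4+ cells. Aldoa, the glycolytic aldolase, was at 399 and 792 CPM (1.22, 1.08 to 1.35), Pgk1 at 19.7 and 53.5 CPM (1.67), and the lactate exporter Slc16a3 at 43.9 and 97.4 CPM (1.38). Bnip3 and Hk2 were at 1.25 and 1.07. All 5 ratios were larger without predicted doublets, from 1.34 to 1.95, while Aldoa (0.99) and Hk2 (0.85) fell short of the size when ratios were not set against the median gene. Of 16 dissociation-stress genes, the chaperone genes Hspa1a (848 and 2107 CPM, 1.54), Hspa1b (787 and 2110 CPM, 1.65) and Hspe1 (390 and 791 CPM, 1.25) passed upward and 0 downward, with Hspa1a at 976 and 2602 CPM in fibroblasts. Hspe1 was at 0.96 without predicted doublets, and without other-lineage cells 3 of the 16 passed upward and 3 downward.

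Il17a showed the widest gap among the helper genes and rested on few cells. It was at 34.3 CPM in WT_LW (61 UMIs in 20 cells) and 531 CPM in TLR9agonist_LW (834 UMIs in 49 cells), a log2 ratio of 4.18 (3.81 to 4.58), and 5 cells held 68.9% and 69.3% of these UMIs. After thinning, 1.35% and 11.5% of Foxp3+ T cells carried an Il17a UMI, against 0.769% and 4.61% of fibroblasts. The 6 markers of gamma delta T17 cells summed to 95.6 and 634 CPM, of which Il17a alone made up 34.3 and 531 CPM. Without predicted doublets the ratio was 1.69, and Il17f (24.8 and 115 CPM, 2.44) came to -0.12.

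Among genes with at least 10 UMIs in each library, outside the gate and the lists of other cell types, the highest ratios included genes known from other wound cells, Sfrp2, Smoc2 and Mfap4 from fibroblasts and Sprr1a, Plet1 and Ehf from epithelium. Igfbp2 (8.44 and 446 CPM), Sprr1a (12.9 and 436 CPM) and Mfap4 (61.9 and 737 CPM) had 76.0%, 75.7% and 56.3% of their TLR9agonist_LW UMIs in 5 cells. Sfrp2, 2310046K23Rik, Smoc2, Plet1, Ppif and Ehf were at ratios from 3.70 to 4.75. Downward, H2-Eb1 (1027 and 89.8 CPM), H2-DMa and H2-DMb1 of antigen presentation, and Cybb, Mmp12, Spp1, Ms4a6d, Pla2g7 and Clec4e of myeloid cells were at ratios from -2.54 to -3.29, with 39.1% to 90.0% of their WT_LW UMIs in 5 cells. Gm26870 was less concentrated than these, with 25.1% of its WT_LW UMIs in 5 cells. It was at 134 CPM in WT_LW, spread over 132 of 301 cells, and had 11 UMIs in TLR9agonist_LW (-4.03). Foxp3- Cd4+ cells had 180 and 15.1 CPM (-3.35). The gene was also lower in CD8 T cells (-3.57), fibroblasts (-4.53) and endothelial cells (-5.22) of TLR9agonist_LW, so this difference between the libraries was not particular to T cells.

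Within the regulatory T cells, those that carried an Il1rl1 UMI were 92 of 301 cells (30.6%) in WT_LW and 81 of 191 (42.4%) in TLR9agonist_LW. They had more Ikzf2 than the cells without it, 1238 against 651 CPM in WT_LW and 1154 against 616 in TLR9agonist_LW, log2 ratios of 0.93 (0.78 to 1.07) and 0.91 (0.75 to 1.07). Klrg1 was at 253 against 91.7 CPM and at 191 against 68.7 CPM, both a log2 ratio of 1.47, and 46 and 39 cells carried both genes where independence would give 28.4 and 30.1. Tnfrsf4 (0.64 and 0.77) and Tnfrsf9 (0.59 and 0.64) were higher in both libraries. Il10 was lower in these cells, at 94.8 against 218 CPM and 30.8 against 83.3 CPM (-1.20 and -1.44). It rested on 58 against 254 UMIs in WT_LW and 21 against 74 in TLR9agonist_LW, many of them in a few cells. Areg differed between the libraries, at 553 against 478 CPM in WT_LW (0.21) and 969 against 2181 CPM in TLR9agonist_LW (-1.17). A cell with more UMIs is more often scored as carrying a gene, and cells with Il1rl1 had medians of 4747 and 5471 UMIs against 4070 and 4834 without.

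Cells with a Klrg1 UMI numbered 93 (30.9%) in WT_LW and 71 (37.2%) in TLR9agonist_LW, and fibroblasts had 0.304 and 0.0739 CPM of the gene. Ikzf2 was higher in these cells, at 974 against 773 CPM and at 1142 against 684 CPM (0.33 and 0.74), and so was Tnfrsf4 (0.43 and 0.91). Il10 was lower in both libraries, at 145 against 196 CPM and at 21.1 against 82.9 CPM (-0.43 and -1.97). It rested on 102 against 210 UMIs in WT_LW and 12 against 83 in TLR9agonist_LW, many of them in a few cells. Other genes followed Klrg1 in 1 library. Foxp3 itself (-0.34 and 0.40), Maf (-0.25 and 0.43) and Ccr2 (-0.33 and 0.30) were lower with Klrg1 in WT_LW and higher in TLR9agonist_LW. Il2ra was at 0.19 (-0.01 to 0.39) and 1.06. The Il1rl1 and Klrg1 splits hold all members, with predicted doublets and cells above 1% of other-lineage UMIs included. Areg was at 507 against 501 CPM in WT_LW (0.02, -0.18 to 0.21) but 2629 against 1101 CPM in TLR9agonist_LW (1.26, 1.14 to 1.37). Penk was at 96.5 against 97.8 CPM in the former (-0.02) and 409.8 against 70.9 CPM in the latter (2.53), and Il17a had opposite signs (-1.92 and 1.39). With a few cells holding most UMIs of Penk and Il17a, these ratios rest on few cells. Single TLR9agonist_LW cells also held up to 202 Areg UMIs, beside 1495 in all cells of that library with Klrg1. Areg went the other way there with Il1rl1 (-1.17). Cells with Klrg1 had medians of 4979 and 5557 UMIs, against 3922 and 4903 in those without.

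**Figure D5:**
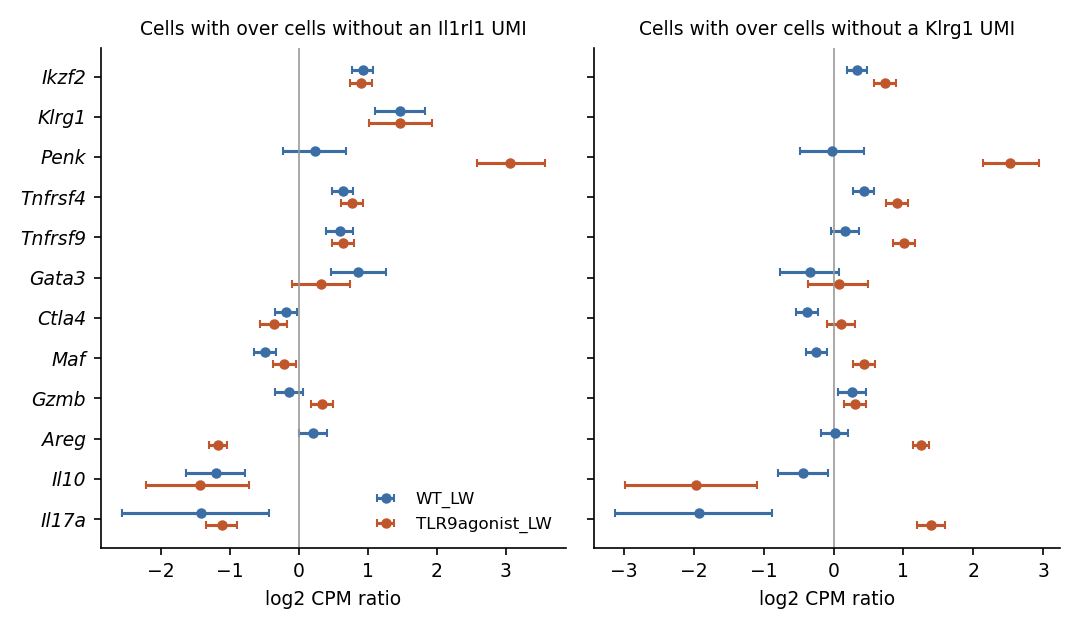
Log2 ratio of CPM in Foxp3+ T cells with over those without an Il1rl1 UMI (left; 92 and 81 cells with it) or a Klrg1 UMI (right; 93 and 71 cells with it), for 12 genes in WT_LW (blue) and TLR9agonist_LW (orange), with exact 95% intervals of the counts; Klrg1 itself is not plotted on the right. Ikzf2 is above 0 with Il1rl1 (0.93 and 0.91) and with Klrg1 (0.33 and 0.74) in both libraries. Il10 is below 0 in each, with many of its UMIs in a few cells. Areg with Klrg1 is at 0.02 in WT_LW and 1.26 in TLR9agonist_LW.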

How the data were processed

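Single-cell RNA of 2 libraries was used, WT_LW and TLR9agonist_LW. The values are UMI counts for each gene in each cell, deposited unnormalized by the authors, and the file headers name Cell Ranger 4.0.0. The submitters' processing notes also name fastp, Seurat and the build mm9. The Chromium chemistry version is not given in the sources used here.

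UMIs were summed over gated cells. Foxp3+ and Foxp3- Cd4+ sums were compared with edgeR 4.0.16 (TMM, filterByExpr, quasi-likelihood test, library as a block, FDR 0.05). Each SE was derived as the size of the log2 fold change over the square root of the test's F statistic. In simulated data for this comparison 165 of 187 changed genes were called, with 5 false calls. The simulation used the same size of fold change for all changed genes, a common dispersion and no difference in expression between the libraries. It does not give the error rate of the real contrast. Between the libraries there is no replicate and no test; genes with at least 100 UMIs were compared by a 2-fold difference. Fibroblasts were cells without Cd3 or Ptprc UMIs and with at least 2% collagen and Dcn UMIs. Doublets were scored with simulated doublets and 50 neighbours in 30 components, and were kept in the main values.

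The members and gene lists were chosen with earlier results of these data known. Genes named are list genes, and outside the gate and other-lineage lists, the 10 highest and 10 lowest called genes by fold change against Foxp3- Cd4+ cells and the 10 highest and 10 lowest library ratios where each library held 10 or more UMIs of the gene. Mitochondrial and ribosomal protein genes were left out of both. Some genes that this rule covers were left out of the text, as were those of the T cell receptor. Alternatives changed 1 choice at a time. DESeq2 1.42.0 served as an alternative.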

Additional observations from a re-analysis of the deposited data

Results flagged for a closer look

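Ratios between the libraries (TLR9agonist_LW over WT_LW, log2, relative to the median gene) were compared for 202 list and named genes. Of these, 11 had the ratio of Foxp3+ and that of Foxp3- Cd4+ T cells on opposite sides of 0. Both counting intervals were clear of 0 in these genes. The same count over all genes was not made, so there is no background share beside it. Whether the 2 ratios differ beyond the spread between mice was not tested, since each library stands alone. Lower in Foxp3+ and higher in Foxp3- Cd4+ cells were Il10 (-1.31 and 1.01), the inhibitory receptors Havcr2 (-0.46 and 1.10) and Ctla4 (-0.26 and 0.45), the T cell receptor modulators Cd5 (-0.32 and 0.16) and Cd6 (-0.42 and 0.41), the glucose transporter Slc2a3 (-0.66 and 0.34) and the myeloid gene Clec4e (-2.54 and 0.61). Higher in Foxp3+ and lower in Foxp3- Cd4+ cells were the immediate early genes Atf3 (0.58 and -0.27), Ier2 (0.53 and -0.17) and Jun (0.66 and -0.12), and the cytokine signalling inhibitor Socs1 (0.64 and -0.76). Clec4e had 90.0% of its WT_LW UMIs in 5 Foxp3+ cells.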

How the results depend on the processing

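The log2 ratio of the share of T cells kept its sign throughout, and moved from -0.78 to -1.27 with a Cd4 UMI required and to -1.07 without other-lineage cells. The 295 and 186 genes past 2-fold became 177 and 105 without predicted doublets, 113 and 101 without other-lineage cells, 491 and 334 at 50 UMIs, and 162 and 101 at 200 UMIs, where fewer or more genes enter by construction. The higher count was 179 with 2 Foxp3 UMIs and 150 with a Cd4 UMI. Without setting ratios against the median gene (-0.23), 226 were higher and 355 lower, so the higher share of the calls went from 61.3% to 38.9%. Signs turned for Sfrp2 (-0.25) and Tigit (-0.10) with a Cd4 UMI, and for Ms4a6d (0.58), Pla2g7 (0.36) and Il17f (-0.12) without predicted doublets; the cause was not tested.

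Against Foxp3- Cd4+ cells, the 273 higher and 180 lower genes became 139 higher without predicted doublets, 94 and 49 with a Cd4 UMI, 593 and 513 without other-lineage cells, 421 and 409 without the low count filter, 150 and 86 against all Foxp3- CD8- T cells, and 95 and 58 with the DESeq2 Wald test, in which 1996 genes had no adjusted p. Without the library block 1 was higher and 0 lower. The causes were not tested. No paired analysis was possible because each group has 1 library; the library block pairs cell groups of 1 suspension. Counting depth limits genes under about 100 UMIs.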
